A study of Caenorhabditis elegans with 12 samples.

Results

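The comparison described here is that of wild-type Caenorhabditis elegans held in 100 mM NaCl with wild-type animals held in 100 mM KCl. It rests on 6 of the 12 libraries of the series, chosen by their labels as the 3 N2 libraries in NaCl and the 3 N2 libraries in KCl, with all genes described. N2 is the laboratory wild-type strain. Synchronized day 1 adults, about 1000 to a sample, were washed in one of the salt solutions and kept in it for 4 h without bacterial food, then frozen, and total RNA of whole animals was sequenced. The labels give 3 biological replicates per salt, and the other 6 libraries of the series are of pmk-1(km25) mutants under the same treatments. The comparison was made to find genes that respond to low potassium. All 6 wild-type samples were without food and in salt solution, and since one solution held sodium where the other held potassium, the parts of the 2 ions in a difference cannot be told apart. Each library is a pool of whole animals, and in such bulk RNA fewer cells of a type and less RNA per cell cannot be told apart.

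Animal cells keep potassium high and sodium low inside by the sodium pump, an ATPase of an alpha and a beta subunit that exports sodium and imports potassium at the cost of ATP. In C. elegans the pump, the V-type proton pump and many channels are spread over epidermis, intestine, excretory cell, muscle and neurons. The epidermis also makes small antimicrobial peptides of the nlp and cnc families, whose genes are known to be switched on by fungal infection, wounding and high osmolarity, in part through the p38 kinase PMK-1 and the STAT-like factor STA-2. The intestine and epidermis both carry large families of detoxification enzymes.

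Library totals were 9187530 to 11445709 counts, and 11663 of the 18418 genes with a count in any of the 6 libraries were abundant enough to be tested. Levels are TMM-scaled CPM, that is counts scaled to a common library size, given in the order of replicates 1, 2 and 3. A log2 fold change is NaCl over KCl, followed by its standard error. A gene was called at a p under 0.05 from the quasi-likelihood test of edgeR after Benjamini-Hochberg adjustment over all genes tested. The libraries held transcripts of all the tissues whose markers were looked at, muscle, neurons, intestine, epidermis, oocytes and embryos. Both first replicates stood apart in sperm markers: the summed level of 18 such genes was 134 and 229 CPM in KCl 1 and NaCl 1 and 6.68 to 26.1 CPM in the other 4 libraries. The 10 later embryo markers summed to 74 to 126 CPM in KCl and 57.2 to 91 CPM in NaCl, so the salts overlapped, while 0 of the 10 had a positive log2 (median -0.25) and 0 passed (edgeR, unadjusted p under 0.05 in 0, DESeq2 calls 0, calls with the block 1 lower). Of these, hch-1, the hatching protease gene, stood at 25.4, 29.4 and 53 CPM in KCl and 10.03, 30.1 and 23.7 CPM in NaCl (edgeR adjusted p = 0.734, 0.0477 with the block).

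In NaCl 133 genes were higher and 21 lower than in KCl, or 1.14% and 0.18% of the genes tested. The rises had log2 fold changes of 0.50 to 5.31 with a median of 1.35, and the falls of -0.68 to -2.54 with a median of -1.304. A positive log2 was found in 48.7% of the genes tested. The median over all genes tested was -0.006, a value that TMM scaling holds near 0, so a shift common to most genes could not be seen in these levels. In all 154 called genes the 3 NaCl libraries lay wholly above or wholly below the 3 KCl libraries, which 7.59% of the genes tested did upward and 5.61% downward, and all 154 were also called by DESeq2 (238 higher and 52 lower in all) and with the replicate number as a block (470 higher and 171 lower in all, 4.03% and 1.47% of the genes tested). The separation and these other fits use the same counts that made the calls, so they are not independent support. Without the first replicates 117 genes were higher and 26 lower. The numbers depended on single libraries: without KCl 2 they were 64 and 5, without NaCl 2 43 and 5, without NaCl 3 110 and 7, and 45 of the 154 genes kept the call without each of the 6 libraries in turn.

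**Figure D1:**
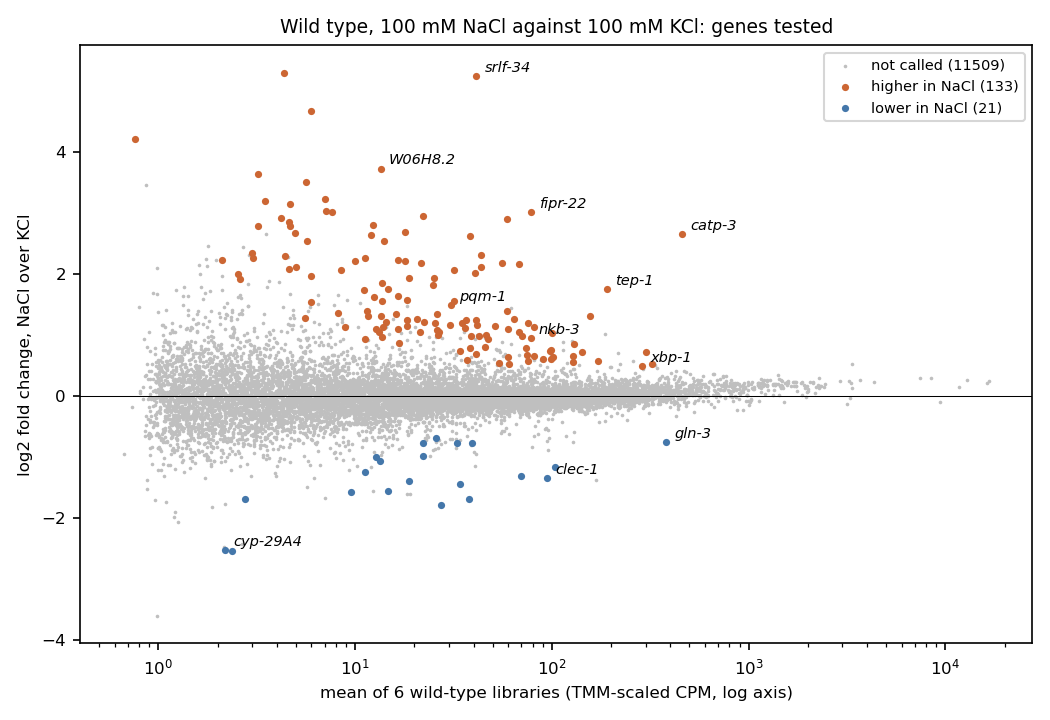
Log2 fold change (NaCl over KCl) against the mean of the 6 wild-type libraries in TMM-scaled CPM on a log axis, 1 point per gene tested, with the 133 genes called higher in orange, the 21 called lower in blue and the others in grey. Rises outnumber falls and reach a log2 of 5.31, while abundant genes such as gln-3 and xbp-1 were called at changes below 1.

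A fit of all 12 libraries, in which the wild-type and mutant libraries share 1 estimate of the spread, called far fewer genes, 23 higher and 2 lower among 13353 tested (0.172% and 0.015%). The biological coefficient of variation was 0.158 in the fit of the 6 wild-type libraries and 0.299 in that of all 12. Of the 154 genes 24 passed in both fits, namely fipr-22, C37A5.3, cyp-14A5, cyp-29A4, ugt-25, srr-4, pqm-1, tep-1, dod-3, pitr-5, ippk-1, clec-1, slfl-5 and, known by sequence names, W06H8.2, M03A1.8, F38B7.2, C38H2.3, F10C2.7, M117.1, T22B7.3, Y4C6B.2, Y46H3A.5, Y58A7A.4 and R09E10.13. The calls below are those of the 6 libraries, and a called gene that is not in this list of 24 lost its call in the fit of 12.

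Among sodium pump genes 3 rose in NaCl. Of 8 alpha and beta subunit genes 6 were abundant enough to test, 3 were higher, 0 were lower and 3 did not pass, and the median log2 was 0.77. The share higher was 50%, beside 1.14% of all genes tested. All 6 had a positive log2, against 48.7% of all genes. In 5 the NaCl libraries lay above all KCl libraries, against 7.59% of all genes. The alpha subunit gene catp-3 stood at 81.3, 134 and 158 CPM in KCl and at 834, 800.3 and 735 CPM in NaCl. The lowest NaCl library was thus more than 4 times the highest KCl library, and the fold was 6.35 (log2 2.67 ± 0.22, n = 3 per salt, edgeR adjusted p = 0.00145). The related alpha subunit gene catp-1 went from 18.5, 11.12 and 14.4 CPM to 36.4, 41.3 and 35.1 CPM (log2 1.36 ± 0.18), and the beta subunit gene nkb-3 from 59.3, 48.7 and 51.3 CPM to 109, 106 and 94.5 CPM (log2 0.95 ± 0.10). In neither gene did the salts overlap. eat-6, the alpha subunit gene known from pharyngeal and body muscle and from neurons, was at 659, 623 and 605 CPM in KCl and 756, 735 and 779 CPM in NaCl. Its salts did not overlap either, but the change was 0.27 ± 0.09 on the log2 scale and did not pass (edgeR adjusted p = 0.373). The beta subunit gene nkb-1 was at 202, 211 and 211 CPM and 217, 232 and 242 CPM, again without overlap, and did not pass (log2 0.15 ± 0.08). Values of the remaining gene tested, in which the salts overlapped, are not given here. For catp-3, catp-1 and nkb-3 the adjusted p in the fit of all 12 libraries was 0.202, 0.11 and 1. catp-1 was not called without NaCl 2 (0.0859).

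Other ion transport genes were called singly. A single rise was 2.63% of potassium channel genes tested and 1.32% of the 76 other solute carrier genes tested. It was 25% of the 4 phosphate transporter genes tested, beside 1.14% of all genes. The potassium channel gene twk-34 rose from 8.15, 7.06 and 5.58 CPM to 22.3, 20.7 and 18.6 CPM (log2 1.56 ± 0.18, edgeR adjusted p = 0.00454, 0.2 with all 12 libraries), the 1 call among 38 potassium channel genes tested, whose median log2 was 0.00. The solute carrier gene slc-9B.1, by its name of the SLC9B family of sodium-proton antiporters, rose from 4.08, 4.64 and 4.98 CPM to 12.1, 11.2 and 12 CPM (log2 1.36 ± 0.19). The phosphate transporter family gene pitr-5 rose from 4.29, 2.998 and 1.89 CPM to 28.5, 24.5 and 11.6 CPM (log2 2.81 ± 0.40), with replicate 3 lowest in both salts. Reads of twk-34, slc-9B.1 and pitr-5 cannot be told from those of a gene that overlaps each on the opposite strand, since the strandedness of the libraries is not given. Among further transport genes, chosen after their values were seen, gon-2, a TRPM cation channel gene needed for gonad development, went from 47.1, 43.03 and 50.1 CPM to 65.7, 71.1 and 81.4 CPM (log2 0.64 ± 0.11), and mca-2, a plasma membrane calcium pump gene that also overlaps an opposite-strand gene, from 57.3, 43.6 and 41.2 CPM to 99.6, 103.5 and 77.8 CPM (log2 0.98 ± 0.15). slc-9B.1 was not called without KCl 2 (0.0676) or NaCl 2 (0.082). pitr-5 was not called without KCl 2 (0.086) or NaCl 2 (0.0902). gon-2 was called only without KCl 3 or NaCl 1 (0.0858 to 0.148 without the others). mca-2 was not called without KCl 2 (0.113) or NaCl 2 (0.128).

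Genes of the V-type proton pump differed little. Of its 21 subunit genes tested 20 had a positive log2 fold change, as did 48.7% of all genes tested, and in 16 the NaCl libraries lay above all KCl libraries, against 7.59% of all genes, yet 0 passed, with 12 at an unadjusted p under 0.05 against 5.56% of all genes upward and 2.62% downward (edgeR, unadjusted p under 0.05 in 12 higher, DESeq2 calls 0, calls with the block 5 higher). The median was 0.21 and the highest 0.35. vha-13 stood at 371, 418 and 405 CPM in KCl and 473, 487 and 526 CPM in NaCl (log2 0.32 ± 0.09), and vha-3 at 70.04, 83.5 and 80.5 CPM and 99.6, 102 and 97 CPM (log2 0.35 ± 0.09). In the sodium-proton exchanger family 8 of 9 genes tested had a positive log2 and 0 passed (edgeR, unadjusted p under 0.05 in 3 higher, DESeq2 calls 1 higher, calls with the block 1 higher). One of them, nhx-6, had 0, 0 and 4 counts in KCl and 10, 21 and 16 counts in NaCl (edgeR adjusted p = 0.123, 0.0188 with the block, 0.0479 without KCl 3), and nhx-5 was at 15.5, 20.02 and 15.3 CPM and 24.2, 21.6 and 22.8 CPM (log2 0.43 ± 0.15). Without each of the other libraries nhx-6 had an edgeR adjusted p of 0.161 to 0.631, and with all 12 libraries 0.502. No call was made among 29 genes of chloride channels, bestrophins and cation-chloride cotransport (edgeR, unadjusted p under 0.05 in 1 higher, DESeq2 calls 0, calls with the block 0, median log2 -0.06), 8 aquaporins (edgeR, unadjusted p under 0.05 in 1 lower, DESeq2 calls 0, calls with the block 1 lower) and 10 DEG/ENaC channel genes (edgeR, unadjusted p under 0.05 in 1 higher and 1 lower, DESeq2 calls 0, calls with the block 1 lower).

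**Figure D2:**
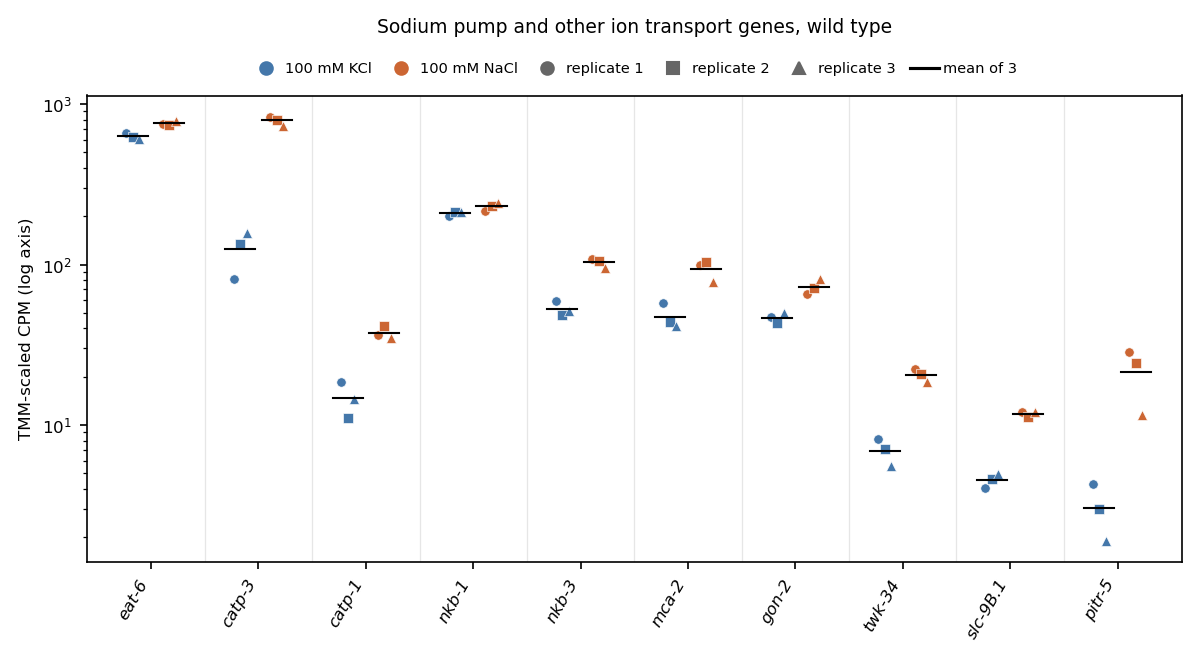
Levels of 10 ion transport genes in TMM-scaled CPM on a log axis, KCl libraries in blue and NaCl libraries in orange, with a symbol for each replicate number and a black bar at the mean of 3. The salts separate widely for catp-3 and narrowly for eat-6 and nkb-1, and nkb-1 lay within 202 to 242 CPM in all libraries.

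Most epidermal antimicrobial peptide genes that could be tested rose. Of 19 genes 11 were abundant enough to test, 7 were higher, 0 lower and 4 did not pass, with a median log2 of 0.97. The share higher was 63.6%, beside 1.14% of all genes tested. A positive log2 was found in 9 of the 11, against 48.7% of all genes, and the lowest was -0.35. The NaCl libraries lay above all KCl libraries in 8, which are the genes given below, and not in the rest, against 7.59% of all genes. A low gene passes the filter more easily where it is high, so these values do not describe all 19. nlp-29, the peptide gene most used as a reporter of epidermal infection and wounding, was at 12.9, 13.2 and 10.4 CPM in KCl and 44, 67.3 and 42.5 CPM in NaCl (log2 2.08 ± 0.20, n = 3 per salt, edgeR adjusted p = 0.00214). Its neighbours behaved likewise: nlp-31 went from 15.4, 17.3 and 15.3 CPM to 50.5, 89.4 and 55.7 CPM (log2 2.02 ± 0.21) and nlp-30 from 1.46, 1.93 and 1.196 CPM to 9.01, 16.98 and 12.2 CPM (log2 3.04 ± 0.32). In all 3 genes NaCl 2 was the highest library and the KCl libraries were close to each other. The caenacin gene cnc-4 went from 13.6, 29.5 and 17.2 CPM to 93.2, 106 and 75.3 CPM (log2 2.18 ± 0.26) and cnc-2, at a low level, from 0.627, 1.74 and 1.59 CPM to 4.56, 12.31 and 8.80 CPM (log2 2.68 ± 0.47). Smaller rises were those of nlp-27, from 36.6, 34.4 and 26.2 CPM to 62.2, 75.2 and 48.9 CPM (log2 0.94 ± 0.18), and nlp-33, from 48.8, 65.1 and 47.2 CPM to 103.3, 92.6 and 84.5 CPM (log2 0.80 ± 0.14). nlp-28 did not pass, at 15.7, 17.8 and 14.6 CPM and 24.6, 43.7 and 26.2 CPM (log2 0.97 ± 0.22, edgeR adjusted p = 0.107, 0.0011 with the replicate block). In the fit of all 12 libraries 0 of the 11 passed, with an adjusted p of 0.117 for nlp-31, 0.238 for nlp-30, 0.721 for cnc-4 and 1 for nlp-29. nlp-27 was called only without NaCl 3 (0.0602 to 0.235 without the others). nlp-33 was called only without KCl 2 (0.0576 to 0.162 without the others). cnc-2 was called only without NaCl 1 (0.0678 to 0.19 without the others). Epidermis markers overlapped between the salts: the summed level of 4 marker genes was 917 to 1257 CPM in KCl and 888 to 1144 CPM in NaCl. Of these 4, 1 had a positive log2, the median was -0.24 and 0 passed (edgeR, unadjusted p under 0.05 in 1 lower, DESeq2 calls 0, calls with the block 1 lower). Their part in the result was not tested.

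The fip and fipr genes, named for fungus-induced proteins and their relatives, showed some of the widest changes. Of 36 genes 12 were tested, 3 were higher and 9 did not pass (5 higher with the replicate block), and all 12 had a positive log2, with a median of 0.67. The share higher was 25%, beside 1.14% of all genes tested (4.03% with the block), and 48.7% of all genes had a positive log2. As above, low genes passed the filter more easily where they were high, so these values do not describe all 36. fipr-22 was at 19.2, 19.8 and 12.26 CPM in KCl and 138, 169 and 111 CPM in NaCl, a fold of 8.14 (log2 3.03 ± 0.21, edgeR adjusted p = 5.95e-04, 0.00783 with all 12 libraries). Next to it on chromosome I, C37A5.3 rose from 3.76, 4.64 and 3.79 CPM to 23.4, 30.1 and 18.4 CPM (log2 2.55 ± 0.23). A second neighbouring pair on the same chromosome, fipr-26 and fip-6, was low in KCl. fipr-26 went from 6, 6 and 1 counts to 134, 130 and 61 counts (log2 4.68 ± 0.58) and fip-6 from 12, 12 and 16 counts to 132, 139 and 93 counts (log2 3.23 ± 0.32). NaCl 3 was the lowest NaCl library in all 4 genes. In the fit of all 12 libraries fipr-26 and fip-6 had an adjusted p of 0.133 and 0.136. fipr-26 was not called without KCl 2 (0.051) or NaCl 2 (0.0536).

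Among the known regulators of these peptides 3 transcription factor genes changed and 0 genes of the p38 cascade passed. sta-2, the STAT-like factor that acts on nlp-29 in the epidermis, rose from 7.84, 8.32 and 7.08 CPM to 21.3, 18.3 and 18.7 CPM (log2 1.33 ± 0.16, edgeR adjusted p = 0.00454, 0.0947 with all 12 libraries), and the bZIP factor gene cebp-1 from 13.5, 15.2 and 13.1 CPM to 28.2, 32.4 and 25.9 CPM (log2 1.05 ± 0.14, 0.00894 and 0.259). elt-3, a GATA factor gene of the epidermis, fell from 18.3, 16.3 and 16.24 CPM to 10.7, 7.11 and 7.82 CPM (log2 -0.99 ± 0.19). Of 13 genes of the p38 cascade 0 passed (edgeR, unadjusted p under 0.05 in 2 higher and 1 lower, DESeq2 calls 0, calls with the block 2 higher and 1 lower), with a median log2 of 0.04. The kinase gene pmk-1 itself was at 34.3, 29.8 and 35.7 CPM in KCl and 24.7, 34.6 and 39.2 CPM in NaCl (log2 -0.01 ± 0.17, the sign changing with the libraries left out). nipi-3, a Tribbles-like kinase gene of the nlp-29 pathway, was at 52.7, 61.9 and 63.8 CPM and 73.8, 80.4 and 80.1 CPM (log2 0.39 ± 0.10, edgeR adjusted p = 0.131, 0.00529 with the block), and the phosphatase gene vhp-1, which counters PMK-1 and JNK-type kinases, at 50.5, 51.3 and 58.7 CPM and 75.6, 73.4 and 65.8 CPM (log2 0.42 ± 0.10, 0.108, 0.0159 with the block). cebp-1 was not called without NaCl 2 (0.0772). elt-3 was called only without NaCl 1 (0.0841 to 0.256 without the others).

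**Figure D3:**
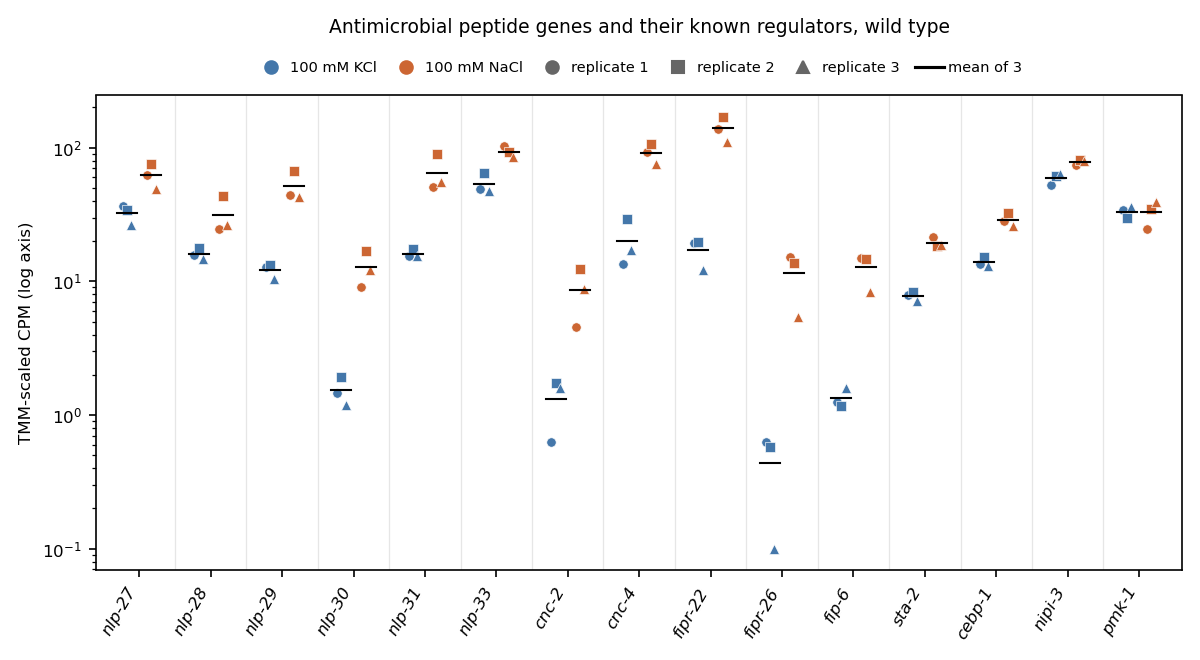
Levels of 11 antimicrobial peptide genes and of sta-2, cebp-1, nipi-3 and pmk-1 in TMM-scaled CPM on a log axis, KCl in blue, NaCl in orange, with a symbol for each replicate number and a black bar at the mean of 3. The salts do not overlap for any of the peptide genes shown, nor for sta-2, cebp-1 and nipi-3, and overlap for pmk-1. Tested peptide genes in which the salts overlap are not shown.

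Intestinal immune genes gave few calls. Of 8 genes tested that are known to depend on PMK-1 in the intestine 0 passed (edgeR, unadjusted p under 0.05 in 1 lower, DESeq2 calls 0, calls with the block 1 lower), and their median log2 was -0.06. The lysozyme gene lys-2 stood at 174, 96.9 and 88 CPM in KCl and 96.3, 57.2 and 70.02 CPM in NaCl, so the salts overlapped (log2 -0.68 ± 0.27, edgeR adjusted p = 0.531, 8.00e-04 with the block), and sysm-1 at 1.05, 1.74 and 0.897 CPM and 1.71, 3.82 and 1.87 CPM. Of 10 lysozyme genes 0 passed (edgeR, unadjusted p under 0.05 in 2 higher and 1 lower, DESeq2 calls 0, calls with the block 2 higher and 1 lower), with lys-8 at 109, 107 and 74.1 CPM and 158, 154 and 113 CPM (log2 0.55 ± 0.17). Among 68 C-type lectin genes tested, of 237, 1 passed and it was lower: clec-1 fell from 117, 171 and 119 CPM to 54.3, 49.5 and 56.6 CPM (log2 -1.35 ± 0.15, edgeR adjusted p = 0.00337, 0.015 with all 12 libraries, and 5 lectins lower and 1 higher with the replicate block). The thioester-containing protein gene tep-1, of the complement-like family, rose from 88.1, 92.5 and 80.1 CPM to 278, 348 and 259 CPM, a fold of 3.39 (log2 1.76 ± 0.12, 5.95e-04, 0.00783 with all 12). Both tep-1 and clec-1 kept the call without any 1 of the libraries. The share of lectin genes tested that were lower was 1.47%, beside 0.18% of all genes.

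Detoxification genes were called in both directions. Of 52 UDP-glucuronosyltransferase genes tested, enzymes that couple sugar acids to lipophilic compounds, 5 were higher, 1 lower and 46 did not pass, with a median log2 of 0.08 (10 higher and 3 lower with the replicate block). That was 9.62% higher and 1.92% lower, beside 1.14% and 0.18% of all genes tested. With the block the shares of all genes tested were 4.03% and 1.47%. ugt-25 rose from 9.62, 14.3 and 8.07 CPM to 44, 87.2 and 66.5 CPM (log2 2.62 ± 0.28, edgeR adjusted p = 0.00275, 0.0129 with all 12 libraries), and its reads cannot be told from those of mlst-8, which overlaps it on the opposite strand. ugt-8 rose from 3.24, 4.74 and 1.99 CPM to 11.2, 21.6 and 29.9 CPM (log2 2.65 ± 0.41) and ugt-66 from 1.88, 2.51 and 2.89 CPM to 10.8, 10.6 and 7.29 CPM (log2 1.97 ± 0.28). ugt-29 and ugt-51 rose by 1.13 ± 0.22 and 1.15 ± 0.22 on the log2 scale. ugt-44 fell from 45.3, 47 and 57.1 CPM to 15.2, 14.5 and 25.1 CPM (log2 -1.44 ± 0.21). ugt-8 was called only without KCl 3 or NaCl 1 (0.0536 to 0.114 without the others). ugt-66 was not called without KCl 2 (0.077) or NaCl 2 (0.0995). ugt-29 was called only without NaCl 3 (0.0803 to 0.267 without the others). ugt-51 was called only without NaCl 1 (0.0697 to 0.292 without the others). ugt-44 was not called without KCl 2 (0.075) or NaCl 2 (0.101).

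Of 44 cytochrome P450 genes tested 1 was higher and 1 lower (6 and 1 with the block). Calls in this and the next 2 families were single genes. A single rise was 2.27% of P450, 3.85% of glutathione S-transferase and 2.7% of ABC transporter genes tested, beside 1.14% of all genes. cyp-14A5 rose from 17.98, 13.1 and 10.6 CPM to 129, 118 and 65.3 CPM, a fold of 7.49 (log2 2.90 ± 0.28, edgeR adjusted p = 0.00214, 0.00783 with all 12 libraries), with replicate 3 lowest in both salts. cyp-29A4 fell from 25, 48 and 40 counts to 6, 4 and 9 counts (log2 -2.53 ± 0.40). Of 26 glutathione S-transferase genes 1 rose, gst-13, from 12.96, 14.7 and 12.76 CPM to 32.03, 36.2 and 25.9 CPM (log2 1.22 ± 0.16), and 1 fell, gst-22, which overlaps an opposite-strand gene, from 23.9, 20.8 and 20.5 CPM to 10.9, 6.47 and 5.06 CPM (log2 -1.55 ± 0.26). The ABC transporter gene haf-7, of the half-molecule class, rose from 27.6, 24.9 and 26.2 CPM to 54.1, 59.2 and 42.3 CPM (log2 0.98 ± 0.14), the 1 call among 37 ABC transporter genes. cyp-29A4 was called only without KCl 1 (0.0554 to 0.148 without the others). gst-13 was not called without NaCl 2 (0.055). gst-22 was called only without KCl 3 or NaCl 1 (0.0655 to 0.189 without the others). haf-7 was not called without KCl 2 (0.0783) or NaCl 2 (0.0835). Intestine markers moved unevenly beside these families: their sum was 493 to 563 CPM in KCl and 583 to 656 CPM in NaCl, 3 of 6 were positive, and 0 passed (edgeR, unadjusted p under 0.05 in 2 higher and 1 lower, DESeq2 calls 1 higher, calls with the block 2 higher and 1 lower). Of these, act-5, the microvillar actin gene, was at 252, 256 and 233 CPM and 324, 303 and 303 CPM and elt-2, the main intestinal GATA factor gene, at 15.9, 9.57 and 7.57 CPM and 6.38, 5.52 and 5.51 CPM. Their part in the result was not tested.

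Of 20 stress and immune transcription factor genes 4 rose, 1 fell and 15 did not pass. That was 20% higher and 5% lower, beside 1.14% and 0.18% of all genes tested. The single rises given below were 12.5% of the dod genes and 5.26% of the endoplasmic reticulum genes tested. pqm-1, the zinc-finger factor of DAF-16-associated elements, rose from 16.9, 16.15 and 15.2 CPM to 42.9, 52 and 41.6 CPM (log2 1.496 ± 0.126, edgeR adjusted p = 0.00162, 0.00783 with all 12 libraries), with no overlap of the salts. The 3 other rises were sta-2, cebp-1 and xbp-1. dod-3, named for lying downstream of the forkhead factor DAF-16, rose from 20.7, 35.3 and 18.04 CPM to 111, 138 and 85.8 CPM (log2 2.17 ± 0.26, 0.00466, 0.0157 with all 12), the 1 call among 8 dod genes tested. xbp-1, whose bZIP factor answers misfolded protein in the endoplasmic reticulum, rose from 230.4, 246 and 239 CPM to 349, 329.7 and 331 CPM (log2 0.50 ± 0.08, 0.0159), the 1 call among 19 genes of that response, whose median log2 was 0.02. The BiP chaperone gene hsp-4, a target of XBP-1, was at 419, 487 and 446 CPM and 470.1, 474 and 532 CPM and did not pass (log2 0.13 ± 0.10). Without the first replicates xbp-1 had an edgeR adjusted p of 0.188, and with all 12 libraries 0.161. xbp-1 was called only without KCl 3 (0.0621 to 0.129 without the others).

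Of 15 cytosolic heat shock genes 14 had a positive log2 (median 0.49), against 48.7% of all genes tested. The 1 that passed was the small heat shock gene hsp-43, which rose from 30.1, 32.9 and 30.7 CPM to 57.5, 53.1 and 42.2 CPM (log2 0.70 ± 0.13). The 15 summed to 9190, 9575 and 7609 CPM in KCl and 10390, 10240 and 10200 CPM in NaCl, with KCl 3 the lowest library. Of 14 metal response genes 2 passed, both higher: the cadmium-responsive gene cdr-2, from 6.79, 6.48 and 6.58 CPM to 12.7, 19.7 and 17.3 CPM (log2 1.32 ± 0.20), and the ferritin gene ftn-2, from 90.8, 109.9 and 97.8 CPM to 171, 161 and 142 CPM (log2 0.67 ± 0.10). Of 9 osmotic stress genes tested 1 passed, osm-7, from 9.41, 8.90 and 7.67 CPM to 25.3, 20.5 and 14.8 CPM (log2 1.22 ± 0.22). The shares higher in the heat shock, metal response and osmotic stress lists were 6.67%, 14.3% and 11.1%, beside 1.14% of all genes tested. Loss of osm-7 is known to make animals resistant to high salt. gpdh-1, whose glycerol-3-phosphate dehydrogenase makes glycerol under hyperosmotic stress, was named for that role and stood at 1.05, 0.870 and 1.79 CPM in KCl and 0.798, 1.59 and 1.51 CPM in NaCl, so the salts overlapped at a low level. Among these calls 0 held in the fit of all 12 libraries, where the adjusted p was 0.172 for osm-7, 0.825 for cdr-2, 0.983 for ftn-2 and 1 for hsp-43, and without the first replicates osm-7, ftn-2 and hsp-43 had an edgeR adjusted p of 0.0673, 0.0865 and 0.146. hsp-43 was called only without NaCl 3 (0.0998 to 0.238 without the others). cdr-2 was not called without KCl 2 (0.104), NaCl 2 (0.116) or NaCl 3 (0.0694). ftn-2 was not called without KCl 1 (0.0558) or NaCl 2 (0.129). osm-7 was called only without NaCl 3 (0.0662 to 0.185 without the others).

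The gene with the largest change among those of at least 5 CPM was srlf-34, from 2.40, 1.93 and 1.99 CPM to 95.1, 92.2 and 54.9 CPM, a fold of 38.1 (log2 5.25 ± 0.27, edgeR adjusted p = 1.70e-04, 0.111 with all 12 libraries). It overlaps gcy-5 on the opposite strand. The serpentine receptor gene srr-4 rose from 16.7, 12.96 and 14.2 CPM to 68.2, 83.5 and 66.9 CPM (log2 2.32 ± 0.14, 3.41e-04 and 0.00783). Of genes known by a sequence name only, W06H8.2 rose from 1.99, 1.64 and 1.99 CPM to 13.9, 36.3 and 25.1 CPM (log2 3.74 ± 0.37), M03A1.8 from 0.836, 1.16 and 0.698 CPM to 9.58, 13.6 and 8.09 CPM (log2 3.51 ± 0.34) and F38B7.2 from 3.66, 6.29 and 5.28 CPM to 33.1, 44.4 and 41 CPM (log2 2.95 ± 0.21). All 5 kept the call without any 1 of the libraries, and the last 3 and srr-4 were also called with all 12.

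Further rises were spread over other families. ora-1, of a family named for an antigen of the parasite Onchocerca, rose from 2.51, 1.35 and 1.196 CPM to 12.77, 15.8 and 12.44 CPM (log2 3.02 ± 0.30, edgeR adjusted p = 0.00214, 0.543 with all 12 libraries) and kept the call without any 1 library. The serpentine receptor gene srsx-34 rose from 10.6, 9.57 and 7.27 CPM to 27.7, 23.2 and 19.1 CPM (log2 1.35 ± 0.20). srdh-1, listed with it by the beginning of its name alone, rose from 67.2, 81.5 and 70.3 CPM to 108, 136 and 122 CPM (log2 0.74 ± 0.11). With srlf-34 and srr-4 these were the 4 calls among 36 genes tested whose names begin like those of chemoreceptors, with a median log2 of 0.07 (10 higher with the replicate block). That was 11.1% of the 36, beside 1.14% of all genes tested, or 4.03% with the block. Of 1358 such genes listed, 545 had a count. Whether the members, srdh-1 and srlf-34 among them, are chemoreceptors was not checked, so the share is that of a list of names. Low genes pass the filter more easily where they are high, so these values do not describe all 1358 either. The patched-related gene ptr-8 rose from 21.01, 20.5 and 14.3 CPM to 33.2, 45.5 and 46.9 CPM (log2 1.17 ± 0.19), the 1 call among 36 hedgehog-related and patched-related genes. The short-chain dehydrogenase gene dhs-21 rose from 12.1, 13.2 and 9.97 CPM to 20.7, 25.05 and 19.3 CPM (log2 0.88 ± 0.17), the 1 call among 28 such genes. The rises of ptr-8 and dhs-21 were 2.78% and 3.57% of the tested genes of their lists, beside 1.14% of all genes. srdh-1, ptr-8 and dhs-21 each overlap a gene on the opposite strand. srsx-34 was not called without KCl 2 (0.0787) or NaCl 2 (0.0995). srdh-1 was called only without KCl 2 or NaCl 1 (0.0507 to 0.112 without the others). ptr-8 was not called without KCl 2 (0.0895), NaCl 2 (0.147) or NaCl 3 (0.091). dhs-21 was not called without any 1 of the libraries (0.087 to 0.286).

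Transthyretin-related genes, a nematode family of small secreted proteins, were called in 1 direction. Of 46 tested 4 were higher, 0 lower and 42 did not pass, while 40 had a positive log2, against 48.7% of all genes tested. In 16 the NaCl libraries lay above all KCl libraries, against 7.59% of all genes, and 16 were higher with the replicate block, against 4.03% (9 in DESeq2). The median log2 was 0.32. ttr-30 rose from 2.20, 4.16 and 4.19 CPM to 18.01, 18.8 and 12.53 CPM (log2 2.22 ± 0.28), ttr-26 from 7.32, 8.03 and 3.59 CPM to 31.01, 37.7 and 19.99 CPM (log2 2.22 ± 0.32), ttr-18 from 31.7, 37.3 and 28.4 CPM to 102.8, 94 and 61.4 CPM (log2 1.403 ± 0.192) and ttr-59 from 21.7, 25.3 and 17.3 CPM to 58.2, 57.4 and 39 CPM (log2 1.26 ± 0.19). In ttr-26, ttr-18 and ttr-59 replicate 3 was the lowest library of each salt. ttr-30 was not called without NaCl 2 (0.0737). ttr-26 was not called without KCl 2 (0.0562) or NaCl 2 (0.0995). ttr-18 was not called without NaCl 2 (0.0889). ttr-59 was not called without KCl 2 (0.051) or NaCl 2 (0.116). In the fit of all 12 libraries their adjusted p was 0.12, 0.0663, 0.361 and 0.498.

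In metabolism the trehalase gene tre-5 rose from 1.25, 1.06 and 0.997 CPM to 4.45, 11.4 and 8.44 CPM (log2 2.86 ± 0.40). The inositol polyphosphate kinase genes ippk-1 and ipmk-1, the latter chosen after its values were seen, rose from 68.9, 59.6 and 59.6 CPM to 88.5, 108 and 102 CPM (log2 0.67 ± 0.10, edgeR adjusted p = 0.0155, 0.045 with all 12 libraries) and from 12.65, 10.4 and 9.67 CPM to 24.7, 31.5 and 21.6 CPM (log2 1.25 ± 0.18). The astacin protease gene nas-11 and the annexin gene nex-2, also chosen after their values were seen, rose from 47.4, 43.6 and 41 CPM to 102, 92 and 80.3 CPM (log2 1.06 ± 0.11) and from 65.5, 69.5 and 61.6 CPM to 125, 159.9 and 117 CPM (log2 1.03 ± 0.12) and kept the call without any 1 library. In the fit of all 12 libraries tre-5, nas-11 and nex-2 had an adjusted p of 0.117, 0.133 and 0.502. Both nas-11 and nex-2 overlap a gene on the opposite strand. tre-5 was not called without KCl 2 (0.0833) or NaCl 2 (0.0795). ippk-1 was called only without KCl 1 or NaCl 1 (0.053 to 0.129 without the others). ipmk-1 was not called without KCl 2 (0.0912) or NaCl 2 (0.0902).

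The 21 falls included a run of neighbouring genes on chromosome IV. C10C5.3 fell from 167, 140.2 and 125 CPM to 67.4, 60.4 and 65 CPM (log2 -1.17 ± 0.11), C10C5.4 from 114, 102 and 81.4 CPM to 37.05, 39.4 and 43.7 CPM (log2 -1.304 ± 0.132) and C10C5.5 from 65.96, 57.6 and 48.8 CPM to 23.5, 13.9 and 16.6 CPM (log2 -1.68 ± 0.19). The first 2 were named for their place beside C10C5.5. In all 3 KCl 1 was the highest and KCl 3 the lowest of the KCl libraries, and the salts did not overlap. H20E11.1 fell from 28.1, 25.5 and 27.6 CPM to 12.31, 8.91 and 9.77 CPM (log2 -1.39 ± 0.16) and K11H12.4 from 57.1, 38.1 and 31.8 CPM to 16.6, 11.2 and 9.33 CPM (log2 -1.78 ± 0.27). The glutamine synthetase gene gln-3, the most abundant of the falls, went from 516, 503 and 410.5 CPM to 302, 273 and 272 CPM (log2 -0.75 ± 0.11, edgeR adjusted p = 0.0132, 0.0663 with all 12 libraries). The glutamate-gated chloride channel gene glc-1 fell from 47.5, 43.3 and 33.5 CPM to 24.2, 24.9 and 23.99 CPM (log2 -0.77 ± 0.14), the Argonaute gene sago-2 from 14.1, 16.15 and 12.9 CPM to 2.85, 5.52 and 5.95 CPM (log2 -1.58 ± 0.27), the arrestin-domain gene arrd-7 from 16.8, 18.7 and 18.9 CPM to 10.5, 7.32 and 8.26 CPM (log2 -1.06 ± 0.18) and the galectin gene lec-11 from 24.6, 31.5 and 27.5 CPM to 14.5, 17.4 and 17.4 CPM (log2 -0.76 ± 0.14). lec-11 overlaps a gene on the opposite strand. C10C5.3, C10C5.4, C10C5.5 and H20E11.1 kept the call without any 1 library and lost it in the fit of all 12, where the adjusted p was 0.0947, 0.12, 0.187 and 0.538. K11H12.4 was not called without KCl 2 (0.071), NaCl 2 (0.129) or NaCl 3 (0.0641). gln-3 was not called without KCl 2 (0.0808), NaCl 2 (0.128) or NaCl 3 (0.0641). glc-1 was called only without KCl 3 (0.0995 to 0.198 without the others). sago-2 was called only without NaCl 1 (0.0512 to 0.163 without the others). arrd-7 was called only without KCl 1 or NaCl 1 (0.0615 to 0.145 without the others). lec-11 was not called without any 1 of the libraries (0.0533 to 0.208).

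Among 14 fatty acid desaturase and elongase genes 1 passed, and it was lower in NaCl. That was 7.14% lower, beside 0.18% of all genes tested. The palmitoyl-CoA desaturase gene fat-5 fell from 14.5, 17.5 and 15.5 CPM to 8.78, 4.67 and 6.75 CPM (log2 -1.24 ± 0.23, edgeR adjusted p = 0.0457, 0.147 with all 12 libraries), and twk-42 overlaps it on the opposite strand. Of 49 acyl-CoA enzyme genes 0 passed (edgeR, unadjusted p under 0.05 in 3 higher and 4 lower, DESeq2 calls 2 lower, calls with the block 3 higher and 2 lower). acs-2, the acyl-CoA synthetase gene known to be switched on by fasting, stood at 313, 248 and 163 CPM in KCl and 137, 71.2 and 72.2 CPM in NaCl. The lowest KCl library was above the highest NaCl library, and within each salt replicate 1 was the highest (log2 -1.37 ± 0.30, edgeR adjusted p = 0.0857, 6.29e-06 with the block, 0.0370 without KCl 3 and 0.0134 without NaCl 1). The peroxisomal acyl-CoA oxidase gene acox-3 was at 72.5, 48.7 and 36.8 CPM and 31.01, 29.4 and 23.8 CPM (log2 -0.91 ± 0.23, 0.148, 6.24e-04 with the block, 0.0365 without KCl 3). sams-1, the S-adenosylmethionine synthetase gene, was at 184, 156 and 139.5 CPM and 115.1, 78.5 and 93.4 CPM (log2 -0.74 ± 0.15, 0.0606, 9.54e-05 with the block, 0.0485 without KCl 3 and 0.0234 without NaCl 1). Without each of the other libraries the edgeR adjusted p of acs-2, acox-3 and sams-1 was 0.174 to 0.45, 0.211 to 0.508 and 0.149 to 0.286. With all 12 libraries it was 0.513, 0.155 and 0.495. fat-5 was called only without NaCl 1 (0.0718 to 0.214 without the others).

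**Figure D4:**
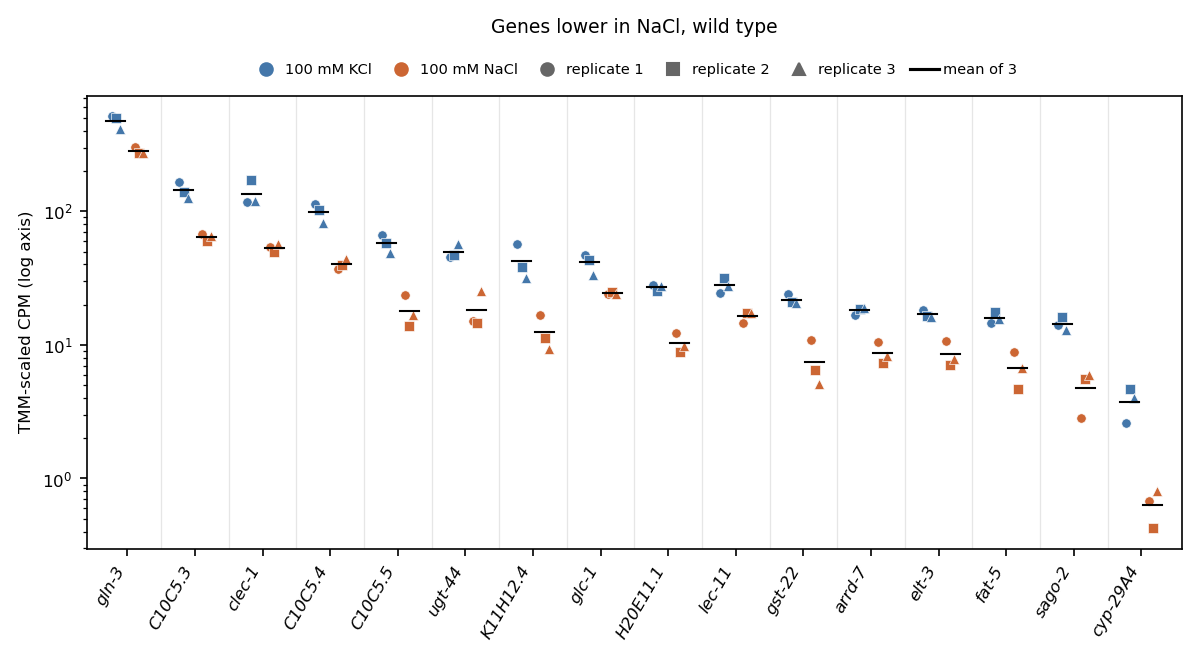
Levels of 16 of the 21 genes called lower in NaCl, in TMM-scaled CPM on a log axis, KCl in blue, NaCl in orange, with a symbol for each replicate number and a black bar at the mean of 3. The salts do not overlap in any of them, and the means differ least for lec-11, glc-1 and gln-3.

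Called genes lay next to each other in 12 places: 28 of the 154 had another called gene within 10000 bases in the WBcel235 annotation, and in all 12 places the neighbours moved the same way. The same count for genes drawn from all those tested was not made, and 133 of the 154 calls were rises. These numbers therefore do not show that called genes cluster or agree in direction more than other genes. Beside the runs named above these were nlp-27, nlp-29, nlp-30 and nlp-31 on chromosome V, cnc-2 and cnc-4 on V, Y58A7A.3, Y58A7A.4 and Y58A7A.5 on V, ttr-30 and ttr-59 on X, tre-5 and C23H3.2 on II, R74.2 and xbp-1 on III, F57H12.6 and ora-1 on IV, Y41G9A.5 and Y41G9A.10 on X, and, lower in NaCl, glc-1 and gst-22 on V. Members of a run can be similar in sequence, and how reads shared by them were divided is not given, so values of single members are less certain than those of the run.

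Of the 59 gene lists 36 held no called gene. Among large families without a call were 157 nuclear hormone receptor genes (median log2 -0.03, edgeR, unadjusted p under 0.05 in 6 higher and 7 lower, DESeq2 calls 1 lower, calls with the block 1 higher and 2 lower), 185 F-box genes (median log2 -0.11, edgeR, unadjusted p under 0.05 in 1 higher and 6 lower, DESeq2 calls 1 lower, calls with the block 1 higher and 2 lower) and 84 cuticle collagen genes (median log2 0.12, edgeR, unadjusted p under 0.05 in 3 higher and 2 lower, DESeq2 calls 1 lower, calls with the block 3 higher and 6 lower). Of all genes tested 48.7% had a positive log2. Of 72 neuropeptide genes other than the epidermal peptides 60 had a positive log2 with a median of 0.29, and 0 passed (edgeR, unadjusted p under 0.05 in 4 higher and 1 lower, DESeq2 calls 1 higher, calls with the block 2 higher). Their sums overlapped, at 556, 539 and 372 CPM in KCl and 676, 637 and 491 CPM in NaCl, with KCl 3 the lowest library. In ribosomal protein genes the shift was small and the salts overlapped, with 78 of 80 positive, a median of 0.20 and 0 called (edgeR, unadjusted p under 0.05 in 0, DESeq2 calls 0, calls with the block 1 higher). They summed to 93220, 89110 and 63530 CPM in KCl and 104900, 94230 and 84340 CPM in NaCl, with KCl 3 the lowest library. The NaCl libraries lay above all KCl libraries in 0 of the 80. The 33 proteasome genes had a median of 0.07 with 0 called (edgeR, unadjusted p under 0.05 in 0, DESeq2 calls 0, calls with the block 0). Muscle markers stood beside these small shifts, with 6 of 6 positive, a median of 0.37 and 0 called (edgeR, unadjusted p under 0.05 in 1 higher, DESeq2 calls 0, calls with the block 2 higher). They summed to 1446 to 3004 CPM in KCl and 2544 to 3457 CPM in NaCl, KCl 3 being the lowest library, and the giant muscle protein gene unc-89 was at 70.4, 67.9 and 47.9 CPM and 82.6, 76.5 and 90.01 CPM. All 18 sperm markers tested were positive with a median of 0.60 and 0 were called (edgeR, unadjusted p under 0.05 in 0, DESeq2 calls 0, calls with the block 0). The part of these markers in the small shifts was not tested.

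**Figure D5:**
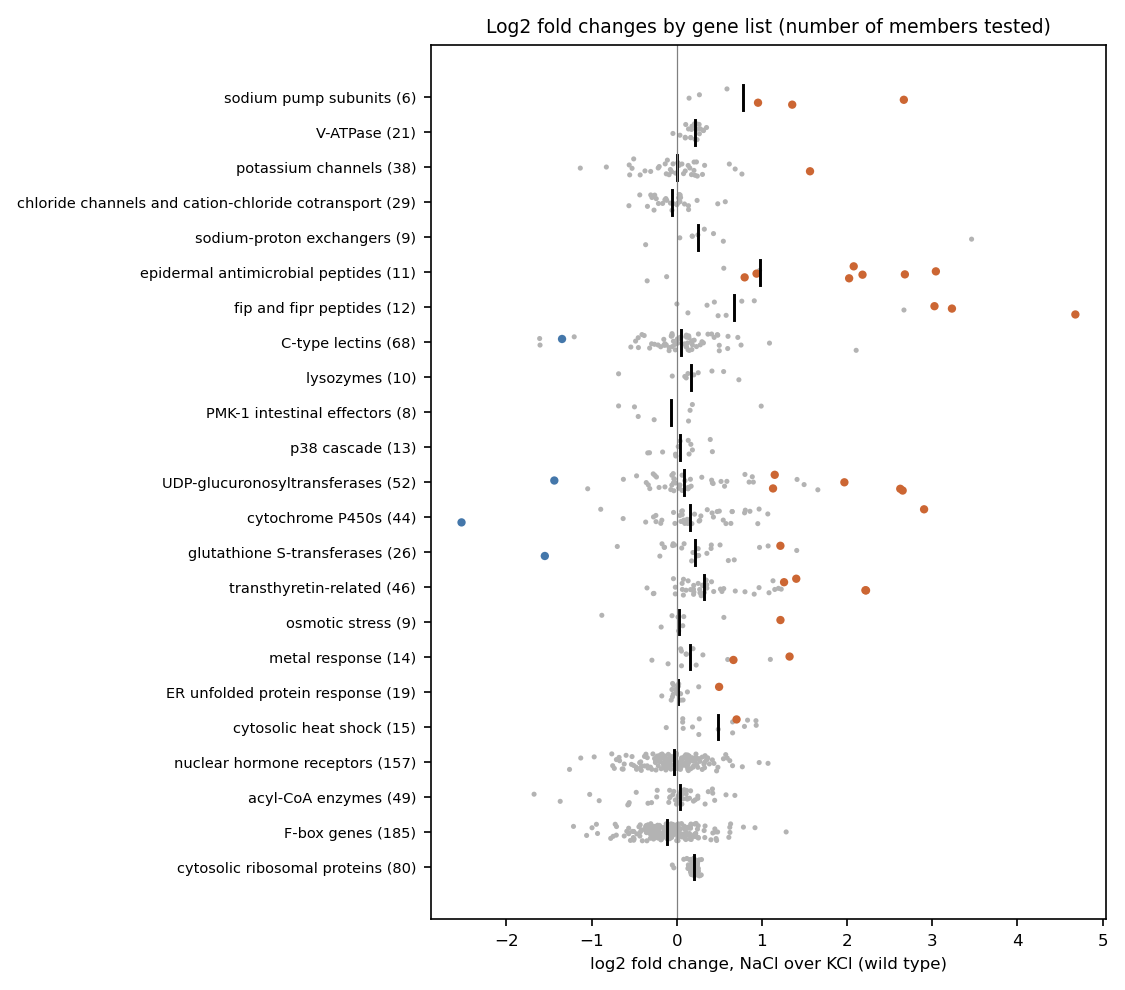
Log2 fold changes (NaCl over KCl) of the tested members of 23 gene lists, 1 point per gene, orange for genes called higher, blue for genes called lower and grey for the others, with a black bar at the median of the list. The sodium pump and epidermal peptide lists have medians of 0.77 and 0.97. Those of the fip and fipr, heat shock, transthyretin-related and sodium-proton exchanger lists are 0.67, 0.49, 0.32 and 0.25. The V-type pump and ribosomal protein lists are narrow and lie just above 0, and the medians of the other lists run from -0.11 to 0.22.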

How the data were processed

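The values the authors deposited are expected counts, whole numbers for each gene in each library. RSEM 1.3.3, STAR 2.7.1a, DESeq2 1.40.2 and R 4.3.1 appear in the submitters' processing notes with no role stated, and build, annotation and strandedness were not given in the sources used here. Of 46904 listed genes 46817 matched the Ensembl annotation of WBcel235 by identifier, which was used for names, chromosomes and neighbours. No reference sequence was used, so the planned count of promoter motifs was not made.

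Counts of the 6 wild-type libraries were filtered with filterByExpr, scaled by TMM and fitted with the quasi-likelihood model of edgeR 4.0.16 (R 4.3.3), with 1 mean per salt. The standard error is the log2 fold change divided by the square root of F. The fit was also run on simulated counts with known fold changes. These were drawn independently for each library, so the fit was not tested under the pairing described below. The 6 libraries were preferred to all 12, whose 1 spread is shared with the mutant, with the counts of both fits known, and members, lists and tests were chosen with earlier results of these data known. DESeq2 1.42.0 was an alternative.

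Same-numbered libraries deviated together from their salt's mean, with correlations across genes of 0.602, 0.15 and 0.516 for numbers 1, 2 and 3. NaCl 2 correlated more with KCl 3 (0.181). The replicate number was a block in alternative fits only. Log2 fold changes, standard errors and calls are those of the main fit, which ignores this pairing, unless the block is named. Replicates differed by more than sampling noise (chi-square per degree of freedom 6.84 to 28.0). Each p-value sets the salt difference against the spread between libraries of the same salt. In the main fit that spread includes the differences between replicate numbers.

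Genes could be named by rule: called, at least 5 CPM and groups apart, the 16 largest rises and 10 largest falls with a gene name and 3 each way without, up to 4 called members of a list by adjusted p or else 2 by unadjusted p, and genes called in the fits of both 6 and 12 libraries. Uncalled genes that the rule allows were named for some lists only. Named outside the rule, after values were seen, were eat-6, nkb-1, gon-2, mca-2, nlp-27, nlp-28, nlp-33, cnc-2, pmk-1, ugt-29, ugt-51, hsp-4, gpdh-1, nas-11, nex-2, C10C5.3, C10C5.4, ipmk-1, Y58A7A.3, Y58A7A.5, C23H3.2, R74.2, F57H12.6, Y41G9A.5 and Y41G9A.10. Of the 154 called genes 40 overlap an exon of another gene on the opposite strand.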

Additional observations from a re-analysis of the deposited data

How the results depend on the processing

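Against 133 rises and 21 falls, 1 fit of all 12 libraries gave 23 and 2, the replicate block 470 and 171, and DESeq2 238 and 52. Relative log expression size factors gave 130 and 22, no filter on low counts 175 and 32, the replicate block with all 12 libraries 108 and 23, and leaving out both first replicates 117 and 26. Leaving out 1 library gave 43 to 110 rises and 5 to 22 falls. The biological coefficient of variation was 0.299 in the fit of 12, 0.158 in that of 6 and 0.0817 in that of 6 with the replicate block. The cause of the moves was not tested. The replicate block ended 0 of the 154 calls. Reversed signs were limited, among the genes named, to pmk-1, from -0.166 to 0.151 on the log2 scale over the libraries left out and 0.174 without both first replicates, and gpdh-1, from -0.121 to 0.448 over the libraries left out. Neither was called. Of the 72 called genes among the 94 named with values, 57 lost the call with all 12 libraries, 35 without KCl 2 and 43 without NaCl 2. The filter on low counts limited the test to 11663 of 18418 detected genes.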
